A study of Mus musculus with 18 samples.

Results

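The 10 genes described here build or bind the extracellular matrix: the fibrillins Fbn1 and Fbn2, elastin (Eln), the lysyl oxidases Lox, Loxl1 and Loxl2, and the matrix-binding glycoproteins Sparc, Postn, Tnc and Fn1. They were chosen by name, with earlier results of these data known, so their counts beside the shares over all genes are a description. All 10 were among the 23420 genes of the RNA-seq table and passed the filter on low values, a mean of at least 10 normalized counts. Fbn2 passed it only through its 2-m libraries. RNA was sequenced from the hindlimb muscle of 9 female C57BL/6J mice, 3 for each age of 2 months (2-m), 20 months (20-m) or 28 months (28-m), and age was the only difference the labels give. Methylated DNA of the same muscles and of splenic T cells was enriched on beads that carry a protein domain binding methylated CpGs, and sequenced (MBD-seq). For this the DNA of 3 mice per age had been pooled, so that each age and tissue was 1 pool. The comparisons ask whether the RNA of these matrix genes, and the methylated DNA at them, differed between the ages.

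Elastic fibres consist of an elastin core on a scaffold of fibrillin microfibrils. Lysyl oxidases are copper-dependent enzymes that cross-link elastin and collagen. Fibronectin, the product of Fn1, forms fibrils that cells and other matrix proteins bind. SPARC, periostin (Postn) and tenascin-C (Tnc) are matricellular proteins, secreted into the matrix where they modulate its contacts with cells, and they are known for high levels in growing and repairing tissue. In skeletal muscle such genes are expressed mainly by fibroblasts, tendon cells and cells of the vessel wall rather than by the fibres.

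In the mouse genome (mm10, GRCm38) the members lie on 9 chromosomes, and each position given spans the whole gene with its exons, introns and untranslated regions. Fbn1 lies at chr2:125300594-125506438, Eln at chr5:134702595-134747323, Loxl1 at chr9:58287723-58313212, Sparc at chr11:55394159-55420080, Tnc at chr4:63959785-64047015 and Fn1 at chr1:71585473-71653234, all on the minus strand. Loxl2 at chr14:69609476-69695834 and Postn at chr3:54359267-54391041 lie on the plus strand. Fbn2, at chr18:58008623-58209926, and Lox, at chr18:52516060-52529867, are the only pair on one chromosome.

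The RNA values are normalized counts, which the authors obtained by dividing the reads of each library by 1 size factor. The libraries held 20203833 to 71115244 reads on genes. Muscle fibre markers summed to 5196324 to 6088631 normalized counts per library at 2 months, 4762872 to 5621040 at 20 months and 4554881 to 4808337 at 28 months. Every 28-m library thus lay below every 2-m library. A few libraries stood apart. The 2-m library of replicate 1 held 2109 normalized counts of bone and cartilage markers against 222 to 372 in the other 8, and 981 of proliferation markers against 11.8 to 75.9. The 2-m library of replicate 2 held 13283 of tenocyte (tendon cell) markers against 33759 and 33896 in the other 2-m libraries. In the libraries numbered 3 the 10 most abundant genes took 29.6 to 32.5% of the signal, against 43.1 to 48.4% in the others.

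Most members were called lower at 20 months than at 2 months, and 5 of the 10 at 28 months. Between 2 and 20 months 8 of the 10 were called lower (limma over all genes tested, adjusted p under 0.05), whereas 7.13% of the 13178 genes tested were called lower and 9.42% higher. Between 2 and 28 months the 5 called lower, Eln, Loxl2, Sparc, Postn and Tnc, stood against 6.24% of all genes, and 7.53% of all genes were called higher. No member was called higher at either age, and none was called between 20 and 28 months. The median log2 fold change of the members was −1.20 at 20 months and −0.99 at 28 months, while the median over all genes was −0.02 and −0.01. Because Fbn2 was tested only through the group where it was high, its values are a description, and the other 9 members gave 7 called lower at 20 months and 5 at 28 months, with medians of −1.17 and −0.85. Without the 28-m library of replicate 1 or of replicate 2 the count at 28 months was 3. For the 9 members without Fbn2 it was also 3 in limma without trend. The submitters' rule, a fold over 2 with an unadjusted p under 0.05, did not take Loxl1 and Fn1 at 20 months or Postn at 28 months, and took Fbn2 at 28 months. The counts of other settings below are of those that give an adjusted p, without this rule or the fits that leave out 1 library. In these bulk samples fewer cells that express a gene and less RNA per cell cannot be told apart.

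**Figure D1:**
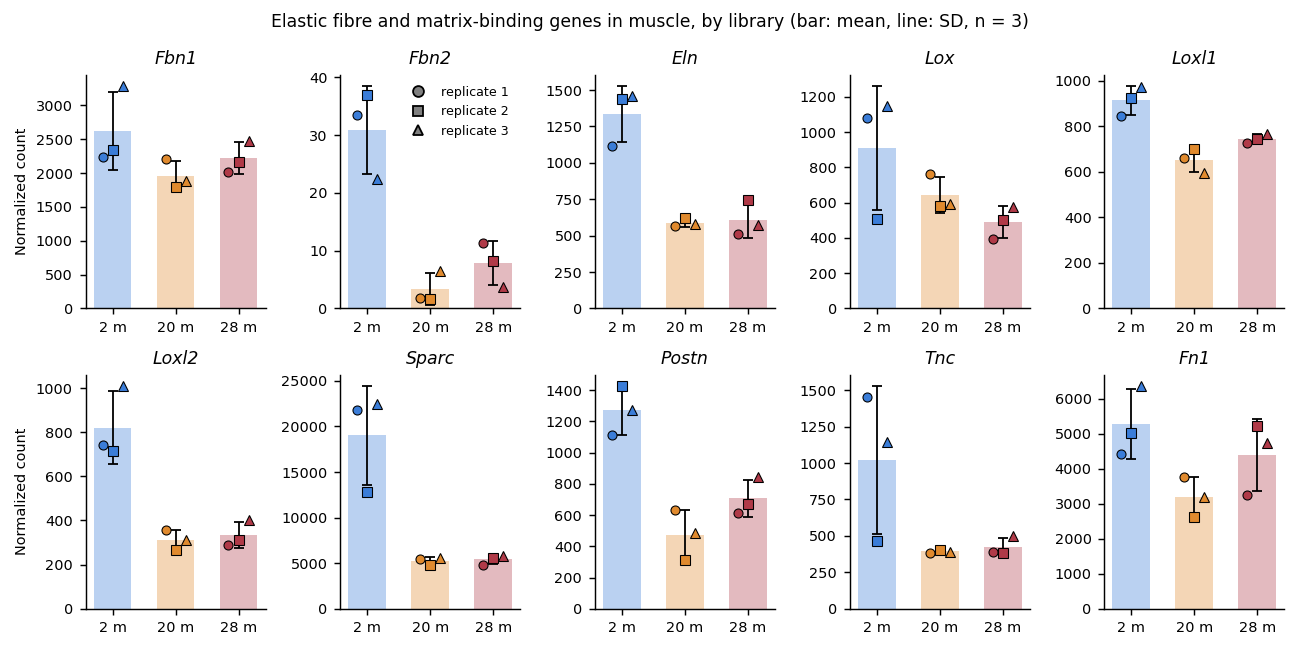
Normalized counts (vertical axes, linear from 0) of the 10 genes in each of the 9 muscle libraries at 2, 20 and 28 months. Bars are means, lines SD (n = 3), and the marker shape gives the replicate. For Sparc, Eln, Loxl2 and Postn every 2-m library stood above every 20-m and 28-m library, while for Lox and Tnc the 2-m library of replicate 2 fell near the aged ones.

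Sparc, a collagen-binding matricellular protein, was the most abundant member. It reached 21792, 12789.7 and 22499.7 normalized counts in the 2-m libraries, 5455, 4782 and 5553 in the 20-m libraries, and 4845, 5607 and 5838 in the 28-m libraries. Its groups at 2 and at the later ages did not overlap. The lowest young library, replicate 2, which also held the fewest tenocyte markers of the 2-m libraries, still had more than 2-fold the highest aged one. The 20-m mean was 27.7% and the 28-m mean 28.5% of the 2-m mean. The log2 fold change was −1.81 ± 0.17 (SE, n = 3 per age) at 20 months and −1.77 ± 0.17 at 28 months, with limma adjusted p-values of 4.1e-05 and 5.4e-05. The call held whichever library was left out, with log2 fold changes between −2.08 and −1.62 over both comparisons. In the 2-m libraries Sparc made up 49.8 to 62.5% of the summed counts of the 10 genes, and in the aged libraries 34.3 to 40.9%. Without Sparc the sum still ran from 12879.6 to 16685 at 2 months and from 7304 to 10859.8 in the 6 aged libraries.

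Elastin, the core protein of the elastic fibre, was also called lower at both later ages. Eln stood at 1117, 1441 and 1456 normalized counts at 2 months, at 566, 621 and 579.7 at 20 months, and at 509, 744 and 570.0 at 28 months. No aged library reached the lowest young one. The log2 fold changes were −1.17 ± 0.14 and −1.15 ± 0.14 (SE, n = 3 per age), with limma adjusted p-values of 2.3e-04 and 2.8e-04. Eln held its call in all 9 fits that left out 1 library, in both comparisons.

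Of the fibrillins, which form the microfibril scaffold, Fbn1 was abundant and Fbn2 scarce. Fbn1 stood at 2244, 2335 and 3292 normalized counts at 2 months, at 2212, 1790.2 and 1879.6 at 20 months, and at 2015, 2164 and 2476 at 28 months. Its 20-m libraries all lay below the 2-m ones, by as little as 2212 against 2244, and its 28-m libraries overlapped them. Neither log2 fold change passed the test, −0.40 ± 0.14 at 20 months (limma adjusted p = 0.065) and −0.23 ± 0.14 at 28 months (adjusted p = 0.320). At 20 months Fbn1 was called in 4 of 13 other settings, namely quantile normalization, the replicate block, a term for the libraries numbered 3 and DESeq2, with limma or DESeq2 adjusted p-values down to 0.028, and without the 2-m library of replicate 3 its value was −0.23. Fbn2, a fibrillin best known from developing tissue, stood at 33.4, 37.0 and 22.4 normalized counts at 2 months, from 15, 21 and 31 reads. It stood at 1.87, 1.69 and 6.54 at 20 months, from 1, 1 and 12 reads, and at 11.4, 8.29 and 3.77 at 28 months, from 6, 6 and 2 reads. All 6 aged libraries lay below all 2-m libraries. The log2 fold change was −3.01 at 20 months (95% interval −4.55 to −1.48, limma adjusted p = 0.013) and −1.93 at 28 months (−3.47 to −0.40, adjusted p = 0.092). The 20-m value carries no weight as a call, since the means of 3.36 and 7.82 at the later ages lie under the filter and only the 2-m mean of 30.9 brought the gene into the test. At 28 months Fbn2 was called in 2 of 12 other settings, with adjusted p-values down to 0.044 in edgeR. With so few reads the size of the Fbn2 difference was poorly fixed, and it ran from −3.70 to −2.13 at 20 months and from −2.08 to −1.51 at 28 months over the other settings tried.

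Of the 3 lysyl oxidases, Loxl2 was called lower at both later ages, Loxl1 at 20 months and Lox at neither. Loxl2, which oxidizes lysines of collagens, stood at 740.0, 714 and 1009 normalized counts at 2 months, at 355, 265 and 311 at 20 months, and at 288, 311 and 402 at 28 months. Every aged library held less than every young one, and the log2 fold changes were −1.39 ± 0.17 and −1.29 ± 0.17 (SE, n = 3 per age, limma adjusted p = 2.3e-04 and 4.0e-04), called in every fit that left out 1 library. Loxl1, the paralog tied to elastic fibre maintenance, stood at 847, 923 and 973 at 2 months, at 661, 700.2 and 596 at 20 months, and at 727, 744 and 766 at 28 months. The 3 ages of Loxl1 did not overlap, the 28-m libraries lying between the other groups, but the steps were small. Loxl1 fell by 0.49 ± 0.10 on the log2 scale at 20 months (adjusted p = 0.0059), and the 28-m value, −0.29 ± 0.10, did not pass (adjusted p = 0.069). The Loxl1 call at 20 months was lost in 2 of 13 other settings, when the libraries were rescaled to the same sum (limma adjusted p = 0.315) and within replicates 1 and 2 (adjusted p = 0.081).

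Lox, the founding enzyme of the family, stood at 1081, 506 and 1146 normalized counts at 2 months, at 760.3, 579 and 591 at 20 months, and at 395, 501 and 578 at 28 months. The young libraries disagreed, since replicate 2 held less Lox than any 20-m library. Neither difference passed the test, −0.42 ± 0.26 at 20 months (limma adjusted p = 0.289) and −0.82 ± 0.26 at 28 months (adjusted p = 0.053). At 28 months Lox was called in 4 of 13 other settings, the replicate block, the term for the libraries numbered 3, edgeR and DESeq2, with adjusted p-values down to 0.0043. Without the 2-m library of replicate 2 both were called, at −0.80 (adjusted p = 0.0061) and −1.20 (adjusted p = 4.2e-04). Tnc, a glycoprotein of tendon and of regenerating muscle, followed a similar course in the same libraries. Tnc stood at 1455, 463 and 1146 at 2 months, at 385, 407 and 391 at 20 months, and at 391, 381 and 496 at 28 months. Its 28-m group overlapped the 2-m group through that 1 young library. The log2 fold changes of Tnc, −1.22 ± 0.31 and −1.13 ± 0.31, were called (adjusted p = 0.017 and 0.028). Without the 2-m library of replicate 1 they were −0.89 and −0.79 and were not called (adjusted p = 0.070 and 0.111), and without that of replicate 3 they were −1.06 and −0.97 (adjusted p = 0.057 and 0.086). Without the 20-m library of replicate 1 the first had an adjusted p of 0.063, and without the 28-m library of replicate 1 or 2 the second had 0.094 or 0.093. Tnc also lost its call in 3 of 13 other settings at each age, with limma adjusted p-values up to 0.125 and 0.153. The tenocyte marker sum, from 7 genes, ran from 13283 to 33896 in the 2-m libraries, from 15162 to 18798 at 20 months and from 10758 to 14342 at 28 months, and its part in the Lox, Tnc and Sparc values was not tested.

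**Figure D2:**
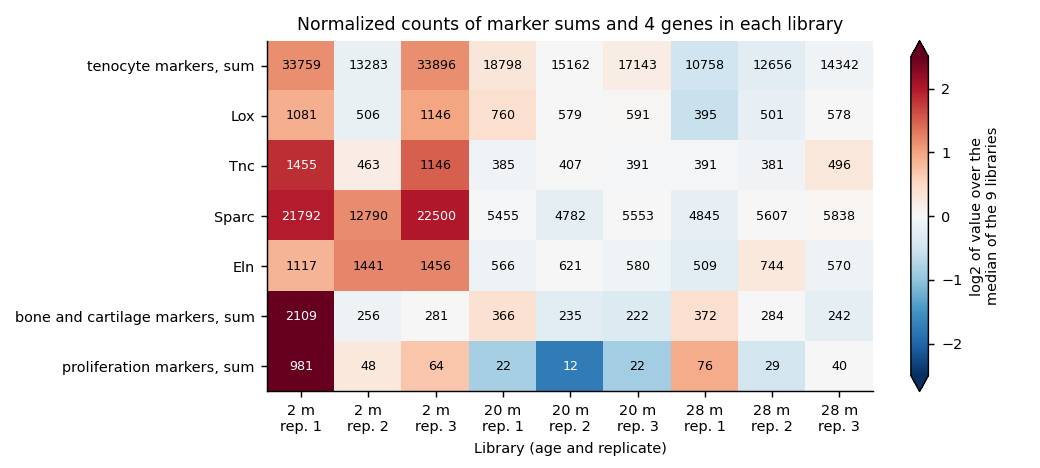
Normalized counts of 3 marker sums and of Lox, Tnc, Sparc and Eln in each library, with colour giving the log2 of each value over the median of the 9 libraries in its row. The 2-m library of replicate 2 held 13283 of tenocyte markers, 506 of Lox and 463 of Tnc, near the aged libraries, whereas its Eln, at 1441, and its Sparc, at 12789.7, stayed above them.

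Postn, a matricellular protein that binds collagen and integrins, stood at 1112, 1426 and 1271 normalized counts at 2 months, at 629.5, 312 and 484 at 20 months, and at 611, 668 and 842 at 28 months. All aged libraries lay below all young ones. Postn fell by 1.47 ± 0.21 on the log2 scale at 20 months (limma adjusted p = 6.7e-04) and by 0.85 ± 0.21 at 28 months (adjusted p = 0.018). The second call was lost without the 28-m library of replicate 1 (adjusted p = 0.080) or replicate 2 (adjusted p = 0.063), and in 3 of 13 other settings (limma adjusted p up to 0.079). Fn1 stood at 4429, 5034 and 6369.6 at 2 months, at 3759, 2629 and 3189.9 at 20 months, and at 3243, 5231 and 4726 at 28 months. Only its 20-m group stood clear of the 2-m group. Fn1 fell by 0.72 ± 0.18 on the log2 scale at 20 months (adjusted p = 0.017), a call lost without the 2-m library of replicate 3 (adjusted p = 0.057) or the 20-m library of replicate 2 (adjusted p = 0.077) and in 3 of 13 other settings (up to 0.117), and its 28-m value of −0.27 ± 0.18 did not pass (adjusted p = 0.351).

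**Figure D3:**
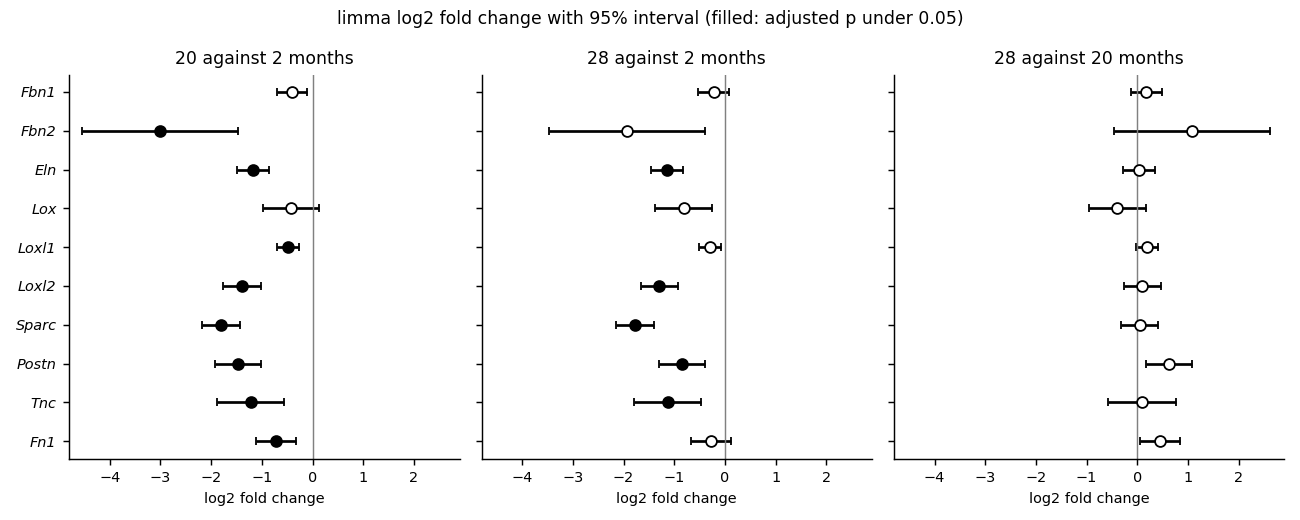
Log2 fold change of each gene (horizontal axis) with its 95% interval from limma, for the 3 pairs of ages, filled where the adjusted p was under 0.05. At 20 against 2 months 8 points are filled and at 28 against 2 months 5, all to the left of 0, and between 20 and 28 months none is filled.

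As a whole, 9 of the 10 members had 20-m libraries that all lay below the 2-m ones, Lox being the exception, whereas 17.6% of all genes tested did so. At 28 months 6 of the 10 did, namely Fbn2, Eln, Loxl1, Loxl2, Sparc and Postn, against 15.0% of all genes. Without Fbn2 it was 8 of 9 at 20 months and 5 of 9 at 28 months. The exact permutation test on a single gene cannot go below p = 0.1 (two-sided) with 3 libraries against 3, and it gave that value for each of these genes. All 10 members were lower in the libraries numbered 3 taken alone, with a median log2 difference of −1.36 at 20 months and −1.10 at 28 months, where 50.6% and 50.3% of all genes were lower. In the replicates 1 and 2 all 10 were lower too, with medians of −1.07 and −1.01, where 51.3% and 51.5% of all genes were. Without Fbn2 these medians were −1.33 and −0.99 in the libraries numbered 3 and −1.05 and −0.98 in the replicates 1 and 2. The libraries numbered 3 are 1 per age and the members vary together, so these counts of members are a description only. Fitted to replicates 1 and 2 only, an alternative chosen after seeing the data, the test called 5 members lower at 20 months, or 4 of 9 without Fbn2, where 3.16% of all genes were called lower, and 3 at 28 months, where 2.37% were.

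Between 20 and 28 months no member passed the test. In the limma fit 0 of 10 were called at an adjusted p under 0.05, where 0.167% of all genes were called lower and 0.212% higher, and edgeR and DESeq2 on the recovered reads also called 0 members. Postn (+0.62, 95% interval 0.16 to 1.07) and Fn1 (+0.45, 0.06 to 0.84) had limma intervals above 0 before adjustment (adjusted p = 0.305 and 0.399). The groups of 2 members did not overlap, Lox being lower at 28 months (8.84% of all genes) and Loxl1 higher (8.63% of all genes). For Sparc, Eln and Loxl2 the intervals of the difference, −0.33 to 0.42, −0.28 to 0.34 and −0.27 to 0.47 on the log2 scale, reach no further than 0.47 from 0 at 95% confidence.

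Levels of different genes were compared per kilobase of transcript, as normalized counts per kb. Sparc led at every age, with 7205 ± 2050 (SD, n = 3) at 2 months, 1993 ± 159 at 20 months and 2056 ± 197 at 28 months. Fn1 came next, with 626 ± 118, 379 ± 67.0 and 522 ± 123, and its libraries did not overlap those of its neighbours. Postn (373) and Eln (347) followed at 2 months, and their libraries overlapped each other. At 20 months that place was held by Fbn1 (198) and Loxl1 (195), again overlapping, with Eln at 153 and Postn at 139.5 below them. At the other end came Lox, Loxl2 and Tnc, with 100.3, 64.4 and 58.0 at 28 months, and Fbn2 with 2.95, 0.321 and 0.746 at the 3 ages. From Postn to Tnc every neighbouring pair in the 2-m order overlapped.

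Over the 9 libraries the log2 profiles of the 45 pairs of members had Pearson r between 0.27 (Fbn2 and Lox) and 0.97 (Loxl2 and Sparc), with a median of 0.76. After each age's mean was taken away, r ran from −0.79 (Fbn2 and Loxl1) to 0.95 (Lox and Sparc) with a median of 0.25. It was also high for Fbn1 and Loxl2 (0.94), Sparc and Tnc (0.90) and Lox and Tnc (0.88). The gene outside the members whose profile was most like that of Sparc was Col1a2, a chain of type I collagen (r = 0.9985), that most like Loxl2 was Col5a1 of type V collagen (r = 0.988), and that most like Lox was Fmod, the collagen-binding proteoglycan fibromodulin (r = 0.978). Fbn1 was most like Cd248 (r = 0.985), a surface protein of stromal cells and pericytes. Fbn2 was most like Ptx3 (r = 0.968), and Tnc was most like Col11a2 (r = 0.984), a chain of cartilage collagen. Eln was most like 6430571L13Rik (r = 0.981), Loxl1 like Rgma (r = 0.977), Postn like Ankmy2 (r = 0.978) and Fn1 like Pcyt2 (r = 0.964). The 10 genes most like the mean of the standardized member profiles were Col6a2 (r = 0.997), Bmp1, Col3a1, Col5a1, Col6a1, Serpinh1, Fstl1, Col5a2, Col4a1 and Igf2 (r = 0.977), of which 6 encode collagen chains and Serpinh1 a collagen chaperone. These correlations rest on 9 libraries that share the 3 ages, and are given as a description.

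Other genes of elastic fibre assembly were called lower too, though most did not pass the test. Of 18 such genes 5 were called lower at 20 months and 5 at 28 months, and 0 were called higher, where 7.13% and 6.24% of all genes were called lower, with median log2 fold changes of −0.41 and −0.20. Mfap2, a microfibril-associated glycoprotein, fell from 116, 91.6 and 154 normalized counts at 2 months to 46.7, 42.2 and 54.5 at 20 months and 45.5, 58.0 and 20.8 at 28 months. Its log2 fold changes were −1.29 and −1.60 (limma adjusted p = 0.030 and 0.012). Mfap4, also a microfibril protein, fell by 1.49 and 1.31 on the log2 scale, although its 2-m library of replicate 2, at 245, lay below one 20-m library at 256. Emilin1, which sits at the elastin and microfibril interface, fell by 0.92 and 0.76, and Bmp1, a protease that activates lysyl oxidase and trims procollagen, by 0.92 and 0.68. Efemp2 (fibulin-4), which tethers lysyl oxidase to elastin, was called lower at 20 months (−0.67, adjusted p = 0.0498) and Loxl4 at 28 months (−1.35, adjusted p = 0.026). The count of this list varied with the settings, from 2 to 7 at 20 months and from 0 to 7 at 28 months. It was 2 or 3 at 20 months when 1 library was left out, either a 20-m library or the 2-m library of replicate 1 or 3, and 2 or 3 at 28 months without the 2-m library of replicate 1 or the 28-m library of replicate 1 or 2, so the single calls are less firm than those of Sparc, Eln and Loxl2.

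Among 20 other matricellular and adhesive glycoproteins 5 were called lower and 3 higher at 20 months, and 4 lower and 1 higher at 28 months. Over all genes 7.13% were called lower and 9.42% higher at 20 months, and 6.24% and 7.53% at 28 months. Over all settings the genes called numbered 2 to 12 at 20 months and 1 to 8 at 28 months. The 28-m count was 8 without the 2-m library of replicate 2, 3 without that of replicate 3, and 2 without the 28-m library of replicate 1. Wisp1, a secreted protein of the CCN family, moved furthest. It stood at 145, 115 and 154 normalized counts at 2 months, at 9.34, 13.5 and 24.0 at 20 months, and at 28.5, 15.2 and 17.0 at 28 months. Its log2 fold changes were −3.15 and −2.75 (limma adjusted p = 3.2e-04 and 8.4e-04). Nid1, a basement membrane linker, fell by 0.46 and 0.43, and Tgfbi, an integrin-binding protein of the same family as periostin, by 0.77 and 0.58. Thbs4, a tendon thrombospondin also counted in the tenocyte list, was called at 28 months (−0.93), and Thbs3 (−0.75) and the adhesive protein Vtn (−0.67) at 20 months. The 3 genes called higher at 20 months were Thbs1 (+1.26), Ctgf (+0.82) and Cyr61 (+0.68), of which Cyr61 was also called at 28 months (+0.65). Cyr61 and Ctgf are, with Wisp1, CCN family members. More than 5 genes of this list were called at 20 months, so the naming rule does not take Vtn, Thbs3, Thbs1 and Ctgf, which were chosen after their values were seen.

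Receptors for the matrix were called lower for 2 of 12 genes and higher for 3 at 20 months, and higher for 3 at 28 months, where the shares over all genes were 7.13% lower and 9.42% higher at 20 months and 7.53% higher at 28 months. These counts were unstable, running over all settings from 0 to 6 genes at 20 months and from 1 to 3 at 28 months. At 20 months 3 or fewer receptors were called when 1 library was left out, either a 2-m or 20-m library or the 28-m library of replicate 3, and at 28 months 1 was called without the 2-m library of replicate 1 or the 28-m library of replicate 1 or 3. Itgb8, an integrin chain, stood at 6.69, 14.1 and 9.39 normalized counts at 2 months, at 26.2, 21.9 and 34.3 at 20 months, and at 91.1, 62.1 and 49.1 at 28 months, and the 3 ages did not overlap. Its log2 fold changes were +1.40 and +2.64 (limma adjusted p = 0.041 and 0.0015). Its partner Itgav rose by 0.41 and 0.47, and Cd36, a receptor for thrombospondin and fatty acids that muscle fibres and endothelium also express, by 0.74 and 0.54. The 2 genes called lower at 20 months were the hyaluronan receptor Cd44 (−0.45) and the syndecan Sdc1 (−0.85). Fibroblast markers were called lower for 5 of 9 genes at 20 months and 2 of 9 at 28 months, with sums of 50621 to 74480 at 2 months, 43898 to 49248 at 20 months and 45594 to 58279 at 28 months. Adipocyte markers were called lower for 4 of 6 genes at 20 months and 1 of 6 at 28 months, with sums of 5870.0 to 8267 at 2 months, 4643 to 5193 at 20 months and 4376 to 6238 at 28 months. Macrophage markers were called lower for 2 of 6 genes at 20 months and 0 of 6 at 28 months, with sums of 2814 to 4247, 2538 to 2602 and 2753 to 3786. Lower calls in other lists were 1 of 7 and 3 of 7 tenocyte markers at 20 and 28 months, and 1 of 7 and 0 of 7 smooth muscle and pericyte markers. For endothelial markers they were 0 of 7 at both ages, and for muscle fibre markers 0 of 6 and 1 of 6. Over all genes 7.13% were called lower at 20 months and 6.24% at 28 months. The part of these markers in the members' differences was not tested.

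**Figure D4:**
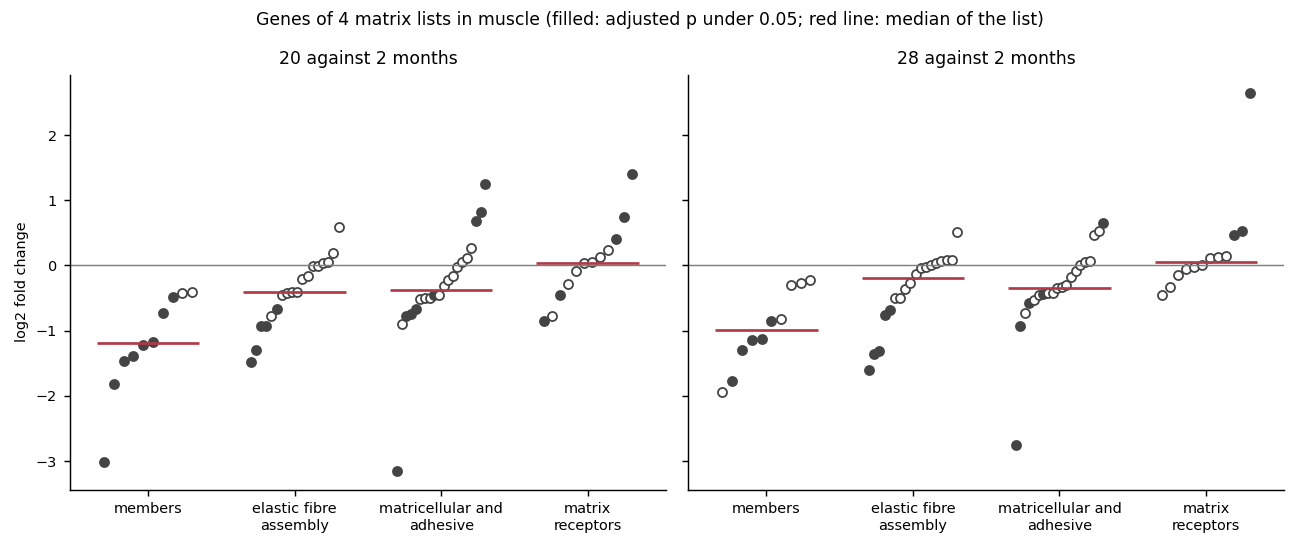
Log2 fold change (vertical axis) of every gene of the members and of 3 further matrix lists, at 20 against 2 and 28 against 2 months, filled where the adjusted p was under 0.05, with a red line at the list's median. The members' medians, −1.20 and −0.99, lie below those of elastic fibre assembly, −0.41 and −0.20, while the receptors lie about 0 with 3 genes called higher at each age.

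The DNA in front of 4 members is shown here because MBD-seq reads depend on CpGs, the dinucleotides that can carry methylation. For Fbn1, Sparc, Postn and Tnc the 250 bases before the gene start were taken from RefSeq (GRCm38.p6) and are given 5′ to 3′ on the gene's strand, at chr2:125506439-125506688 (minus), chr11:55420081-55420330 (minus), chr3:54360857-54361106 (plus) and chr4:64046937-64047186 (minus). Capitals mark CpGs.
Fbn1: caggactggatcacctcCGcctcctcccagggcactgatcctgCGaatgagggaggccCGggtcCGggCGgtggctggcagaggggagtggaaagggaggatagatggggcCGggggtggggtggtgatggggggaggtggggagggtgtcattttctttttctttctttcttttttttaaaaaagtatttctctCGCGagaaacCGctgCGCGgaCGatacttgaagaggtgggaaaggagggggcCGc
Sparc: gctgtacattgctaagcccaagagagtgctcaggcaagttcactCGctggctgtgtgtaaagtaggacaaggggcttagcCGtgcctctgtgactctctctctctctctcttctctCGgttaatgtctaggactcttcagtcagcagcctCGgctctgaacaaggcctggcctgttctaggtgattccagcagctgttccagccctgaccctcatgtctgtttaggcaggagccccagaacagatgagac
Postn: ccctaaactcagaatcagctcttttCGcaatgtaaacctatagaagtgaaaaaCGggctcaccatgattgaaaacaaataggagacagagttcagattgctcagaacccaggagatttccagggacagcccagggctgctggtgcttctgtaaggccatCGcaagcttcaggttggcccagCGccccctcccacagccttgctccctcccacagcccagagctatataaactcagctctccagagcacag
Tnc: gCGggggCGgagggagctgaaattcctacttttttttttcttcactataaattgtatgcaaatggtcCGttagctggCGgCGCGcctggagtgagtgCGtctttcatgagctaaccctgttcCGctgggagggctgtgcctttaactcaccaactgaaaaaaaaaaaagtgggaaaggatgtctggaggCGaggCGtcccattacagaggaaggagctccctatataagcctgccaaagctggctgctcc
They hold 13, 4, 4 and 10 CpGs, where the median of 32851 upstream sequences of this length is 6. Searched on both strands, the TATA box letters TATAAA occur in Postn and Tnc (12.4% of all sequences), the GC box letters GGGCGG in Fbn1 and Tnc (32.7%), and the AP-1 letters TGANTCA in none of the 4 (6.7%).

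MBD-seq signal was averaged over the 500-bp bins within 1000 bp of each gene start, as normalized counts per bin, and over the gene body. With 1 pool per age no test between ages was possible. Values are given with the exact Poisson interval of their reads, which takes each read as independent and covers at most counting error. Over all bins the recovered reads of each muscle library exceed the mean reads per age group that the paper reports. Some reads may thus be counted in more than 1 bin, which would make the intervals too narrow. In muscle, the gene starts of the members held 1.09 to 13.6 normalized counts per bin at 2 months, from the 7.07 to the 63.9 percentile of all gene starts, and 1 of the 10 passed 2-fold at each later age. Sparc stood at 10.6, 13.1 and 15.8 at 2, 20 and 28 months, and Eln at 13.1, 14.8 and 9.94. Postn, at 3.28 (1.94 to 5.18), 5.22 (3.55 to 7.41) and 8.41 (6.51 to 10.7), was the only member past 2-fold higher at 28 months, where 20.4% of all genes were higher and 3.88% lower by that much. Loxl2 was the only one past 2-fold higher at 20 months (2.99% of all genes), from 3.64 (2.22 to 5.62) to 9.26 (6.98 to 12.1), and it stood at 5.86 (4.29 to 7.82) at 28 months. With a window of 2000 bp no member start in muscle passed 2-fold at 28 months.

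Along the gene bodies in muscle no member passed 2-fold at 28 months, where 3.14% of all genes were lower and 5.78% higher by that much. Loxl2 stood out among the members at 20 months. Its body, 172 bins, held 11.5 normalized counts per bin in the 2-m pool, 21.0 in the 20-m pool and 19.1 in the 28-m pool, and its 20-m rise was at the 98.1 percentile of all gene bodies. The rise was spread along the gene, with 143 of the 172 bins higher at 20 months and 149 higher at 28 months than at 2 months. Fn1, the most heavily captured member, moved the other way, from 51.5 over 45.6 to 28.6, which placed its 28-m change at the 6.65 percentile. The muscle pool at 28 months had a flatter profile, and of the 1588 bins of the 10 genes 86 held no read at 2 months and 1 at 28 months. Its part in these values was not tested.

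In T cells, which are not the tissue of the RNA, 4 of the 10 gene starts were past 2-fold higher at 28 than at 2 months, against 12.5% of all genes, and 3 of the 10 at 20 months, against 9.72%. Fn1 rose from 0.812 (0.221 to 2.08) over 3.65 (2.04 to 6.02) to 24.3 (19.6 to 29.8) normalized counts per bin, from 4, 15 and 92 reads, the 99.4 percentile of all gene starts. Fbn1 went from 16.2 over 26.0 to 75.3, Fbn2 from 13.0 over 37.0 to 67.1, and Lox from 21.5 over 47.9 to 66.1. The counting intervals of these 4 starts at 2 and 28 months, which may be too narrow, lay apart. The same starts in muscle held 2.04, 11.6, 8.03 and 8.03 at 28 months. Sparc went the other way in T cells, from 44.1 to 34.6, and its intervals at these ages overlapped (38.4 to 50.3 and 29.0 to 41.1).

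**Figure D5:**
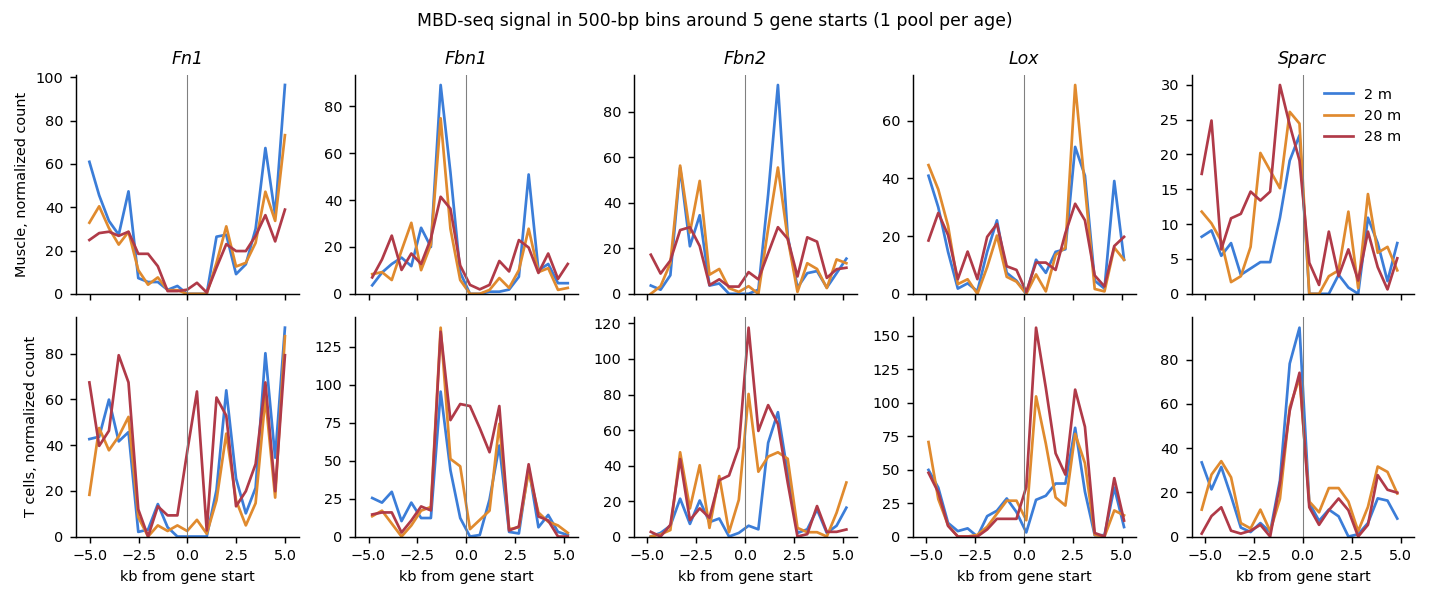
MBD-seq normalized counts in 500-bp bins (vertical axes) by distance from 5 gene starts in kb, in muscle (upper row) and T cells (lower row), with 1 pool per age and 1 line per age. At the starts of Fn1, Fbn1, Fbn2 and Lox the 28-m T-cell means over the 1000 bp on each side, 24.3, 75.3, 67.1 and 66.1, lie above the 2-m means of 0.812, 16.2, 13.0 and 21.5, although for Lox the 28-m line runs below the 2-m line just before the start, whereas the muscle means of these 4 genes lie between 0.674 and 12.4 at all ages.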

How the data were processed

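RNA-seq (muscle, 9 libraries) and MBD-seq (muscle and T cells, 1 pool per age) tables were used. Both hold signal values, which the authors made by dividing read counts per refSeq gene or per 500-bp bin by a DESeq2 size factor for each library. Upstream the authors used Trim Galore for trimming and Bowtie2 to place MBD-seq reads on mm10, and counted with bedtools and HTSeq (intersection-strict, strand use not given in the sources used here). For RNA-seq the paper's methods name Hisat2 and the submitters' processing notes TopHat, both to mm10. Strict counting drops reads that reach outside an exon. All nonzero RNA values (100%) were whole multiples of 1 read, within 0.01 reads, and these recovered reads were used for count tests.

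The 13178 genes whose normalized counts averaged 10 or more were fitted with limma 3.58.1 (R 4.3.3, trend) on log2(value + 1), with age as the only term, all 9 libraries and Benjamini-Hochberg adjustment over all genes. Fold changes are on that scale and understate those of low genes. The submitters' rule of a fold over 2 with an unadjusted p under 0.05 was an alternative. The others were pseudocounts of 0.1 and 5, no filter or a mean of at least 50, rescaling, quantile normalization, a term for the replicate number or for the libraries numbered 3, 2 ages only, no trend, edgeR 4.0.16 and DESeq2 1.42.0 on recovered reads, leaving out each library, and, chosen after seeing the data, replicates 1 and 2 only. limma was also tested on simulated data.

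RefSeq positions were matched for 23188 of 23420 genes, 1655 of them by an older symbol. MBD-seq was averaged within 1000 bp of the start shared by most curated transcripts and over the gene body, as log2(value + 1), from 90435044 to 249494136 normalized counts per library. The muscle columns name tissue and age, not the round of capture, so which of the rounds they hold is not known and the rounds are not compared here. By rule the text names the 10 members, all called genes of a matrix list where an age had 5 or fewer and otherwise its 2 largest rises and falls at 28 months, and the genes most like each member. Members and lists were chosen with earlier results of these data known.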

Additional observations from a re-analysis of the deposited data

Results flagged for a closer look

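In some places the MBD-seq signal of a gene moved in opposite directions in the muscle and T-cell pools between 2 and 28 months. Each tissue had 1 pool per age, so whether the tissues truly differ was not tested. At gene starts this concerned 5 members, and the log2 fold change of the T cells minus that of the muscle was 2.23 for Fbn1, 2.44 for Fbn2, 0.77 for Eln, 0.51 for Loxl1 and −0.88 for Sparc. These directions depended on the setting. With a window of 500 bp the only such start was Sparc, and after the bins were rescaled to the same sum the starts were Sparc and Postn. With 2000 bp the 5 starts were joined by Postn. Only the Sparc start of the 5 was higher with age in muscle and lower in T cells. Along gene bodies it concerned the means over bins of 8 members, all lower in muscle and higher in T cells, with differences of 0.55 for Fbn1, 0.77 for Fbn2, 0.27 for Eln, 0.83 for Lox, 0.30 for Loxl1, 0.085 for Postn, 0.41 for Tnc and 1.20 for Fn1. Counted by bins the picture was another one for most of them. In muscle more bins than not were higher at 28 than at 2 months for 6 of these bodies, namely 228 of 412 for Fbn1, 50 of 90 for Eln, 18 of 28 for Lox, 33 of 52 for Loxl1, 47 of 65 for Postn and 121 of 176 for Tnc, and fewer were for Fbn2 (150 of 403) and Fn1 (31 of 137). In T cells the median bin was lower at 28 months for Eln, Loxl1, Postn (9.14 to 5.29) and Tnc (5.58 to 3.97), and for Fn1 99 of 137 bins were higher. After rescaling, an alternative for gene bodies chosen after seeing the data, the set was another one. Fbn2 and Lox were no longer opposite, Loxl2 and Sparc became so, and of these 8 bodies 7 were higher in muscle and lower in T cells, Fn1 being the exception. Over all gene bodies the median log2 fold change had the same signs, −0.23 in muscle and 0.25 in T cells.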

How the results depend on the processing

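With Fbn2 included, the counts of members called kept within 1.5 times their main values under every other setting except leaving out a library or the replicates numbered 3. Without Fbn2 they did not in limma without trend, which called 3 of 9 at 28 against 2 months, where the main fit called 5 of 9. With replicates 1 and 2 only, 5 members were called at 20 against 2 months and 3 at 28 against 2 months, or 4 of 9 and 3 of 9 without Fbn2. Leaving out 1 library gave 6 to 9 members at 20 against 2 months, 3 to 6 at 28 against 2 months and 0 at 28 against 20 months. Of the 9 members without Fbn2 it gave 5 to 8, 3 to 6 and 0. Among the fits that left out 1 library the lowest count at 28 months, 3, came without the 28-m library of replicate 1 or 2. Sparc, Eln and Loxl2 were called against 2 months in every setting tried.

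For the matrix lists, leaving out 1 library gave 2 to 6 genes at 20 against 2 months and 2 to 7 at 28 against 2 months for elastic fibre assembly, 6 to 10 and 2 to 8 for the glycoproteins, and 1 to 6 and 1 to 3 for the receptors, with 0 to 1 glycoprotein at 28 against 20 months. The count for elastic fibre assembly at 20 against 2 months was 3 without a filter, after rescaling, with 2 ages only and within replicates 1 and 2, and 2 without trend and under the fold rule. At 28 against 2 months it was 3 after rescaling, with 2 ages only, without trend and under the fold rule, and 0 within replicates 1 and 2. The glycoproteins numbered 4 after rescaling and 2 without trend and under the fold rule at 20 against 2 months. At 28 against 2 months they numbered 3 after rescaling, 8 with a term for the libraries numbered 3, and 1 without trend and under the fold rule. The receptors at 20 against 2 months numbered 2 without a filter, 1 after rescaling, 3 after quantile normalization, 2 without trend, 1 under the fold rule and 0 within replicates 1 and 2. At 28 against 2 months they numbered 1 after rescaling, without trend, under the fold rule and within replicates 1 and 2. At 28 against 20 months 1 glycoprotein was called with 2 ages only and 1 receptor under the fold rule. Over all genes, rescaling cut the calls at 20 against 2 months from 2181 to 586, limma without trend to 1336 and the fold rule to 681. In muscle 0 gene starts passed 2-fold with a window of 2000 bp, against 1. The causes were not tested.

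At 28 against 20 months the near-zero differences changed sign in places. Without 1 library the log2 fold change ran from −0.13 to 0.15 for Eln, from −0.041 to 0.20 for Loxl2, from −0.024 to 0.12 for Sparc and from −0.029 to 0.16 for Tnc. Within replicates 1 and 2 it was −0.034 for Loxl2 and −0.035 for Tnc.

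Replicate numbers were not taken as pairs, since the correlation of deviations between same-numbered libraries ran from −0.04 to 0.16 and was not above 0.1 for every pair. With the replicate number as a block, 9 members were called at 20 against 2 months, Fbn1 being added, and 6 at 28 against 2 months, Lox being added, and 8 glycoproteins at 28 against 2 months, while all calls at 20 against 2 months rose from 2181 to 3000. Without Fbn2 the block called 8 of 9 members at 20 against 2 months and 6 of 9 at 28 against 2 months. Fbn2 rests on 1 to 31 reads per library.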
